A study of Mus musculus with 7 samples.

Results

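B cells of the superficial cervical lymph nodes (sCLN) were compared between 5xFAD and wild-type (WT) mice, with 1 B cell receptor library from each. A cell was counted where its barcode carried exactly 1 productive heavy chain contig, which gave 2356 cells from the 5xFAD library and 3440 from the WT library, 5796 of 17381 such cells over the 6 libraries whose labels give a single node and genotype. The mice were females aged 10 to 11 months, and both groups were perfused and had their nodes digested in the same way. 5xFAD mice, used to model Alzheimer's disease, carry transgenes under the neuronal Thy1 promoter and develop amyloid deposits in the brain, and WT mice carry no such transgene. Cells were labelled with hashtag antibodies and combined before loading, and the deposited tables do not tie a cell to an animal, so no difference below has a replicate check and the libraries, not the genotypes, were compared. A further library, labelled with 3 nodes and both genotypes together, was set in neither group. The tables used here hold immunoglobulin contigs only, so the labelled tissue was not checked against marker genes.

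The superficial cervical nodes receive lymph from the face, scalp and mouth and part of the outflow from the head. Most B cells in a resting node are naive: they carry IgM and IgD, made by alternative splicing of a single transcript, and their heavy chain was built by joining 1 V, 1 D and 1 J segment with non-templated (N) bases at the joints. After contact with antigen, some cells mutate their V segments and switch to IgG, IgA or IgE, and some become plasma cells, which hold far more immunoglobulin mRNA than other B cells. Each of these steps can be read from the contigs: the isotype from the constant region, mutation from mismatches to the germline V segment, and immunoglobulin mRNA from the number of unique molecular identifiers (UMIs, tags that count molecules).

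The 5xFAD library held 2675 barcodes with an immunoglobulin contig and 138878 UMIs, and the WT library 3939 barcodes and 312484 UMIs. The median cell had 12 heavy chain UMIs in the 5xFAD library and 11 in the WT library. Reads per UMI differed, at 67.8 in 5xFAD and 29.3 in WT over all contigs, with a median per heavy chain of 72.1 and 47. More than 1 heavy chain was found in 3.99% of 5xFAD and 3.64% of WT barcodes with a heavy chain, and these were left out. The libraries shared 13 barcodes, none with the same heavy chain junction. Shares are given with exact Clopper-Pearson 95% intervals, which cover counting error only, and differences are 5xFAD minus WT in percentage points with an interval built from both. Of 235 differences of shares tallied between the libraries, many of them overlapping, 29 had an interval clear of 0, and 13 of these were thresholds of UMIs per cell. The differences in the number of light chains of switched cells, given below, were not in this tally.

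The 5xFAD nodes held fewer class-switched cells than the WT nodes. Switched cells made up 2.90% of the 5xFAD cells with an isotype (2.26 to 3.66, 68 of 2343) and 4.23% of the WT cells (3.58 to 4.96, 144 of 3404), a difference of -1.33 points (-2.30 to -0.325). In the other nodes the same difference was 0.00898 points in the deep cervical nodes (-0.940 to 0.946) and -0.231 in the inguinal nodes (-0.959 to 0.496), both with intervals that include 0. The difference between nodes was not tested.

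The lower switched share was spread over the IgG classes. IgG2c, the C57BL/6 counterpart of IgG2a and a class favoured by interferon-gamma, was carried by 21 5xFAD cells and 49 WT cells, 0.896% against 1.44%. IgG2b was carried by 22 and 47 cells, 0.939% of 5xFAD and 1.38% of WT cells. IgG1, the class favoured by interleukin-4, was found in 19 5xFAD and 34 WT cells, 0.811% and 0.999%. IgG3, typical of responses without T cell help, was found in 2 and 5 cells, and IgA, the class of mucosal surfaces, in 4 and 9 cells. The ratio of 5xFAD to WT shares ran between 0.581 for IgG3 and 0.812 for IgG1, and the interval of the difference included 0 for each of these classes taken alone. No IgE cell was seen in either library, which allows a share of up to 0.128% of 5xFAD and 0.0881% of WT cells, taking 3 cells as the limit that a count of 0 allows.

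Among the switched cells the mix of classes was close. IgG1 took 27.9% of the 5xFAD switched cells (17.7 to 40.1) and 23.6% of the WT ones (16.9 to 31.4). IgG2b took 32.4% and 32.6%, IgG2c 30.9% and 34.0%, and IgA 5.88% and 6.25% of 5xFAD and WT switched cells. With 68 and 144 switched cells, a difference in IgG2c of between -16.7 and 11.4 points remained within counting error.

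**Figure D1:**
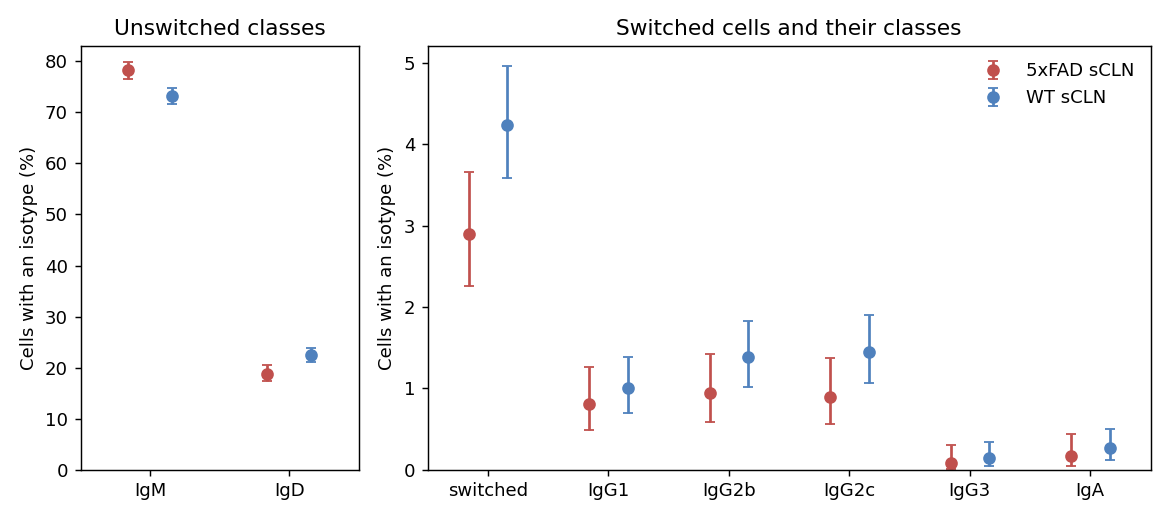
Shares of cells with each isotype in the 5xFAD (red) and WT (blue) superficial cervical libraries, in percent of cells with an isotype; points are the shares of the single library and bars exact 95% intervals. Switched cells were 2.90% in 5xFAD and 4.23% in WT, with every switched class that was seen lower in 5xFAD, and IgM was higher and IgD lower in 5xFAD.

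The balance of IgM and IgD among unswitched cells also differed. Of all cells with an isotype, 78.3% in 5xFAD and 73.3% in WT carried IgM, a difference of 5.01 points (2.73 to 7.26). IgD was the isotype of 19.4% of unswitched 5xFAD cells (17.8 to 21.1, 441 of 2275) and of 23.5% of unswitched WT cells (22.1 to 25, 766 of 3260), a difference of -4.11 points (-6.31 to -1.89). IgD calls depended strongly on UMIs: with 1 or 2 heavy chain UMIs 69.8% of 5xFAD and 53.9% of WT unswitched cells were called IgD, and with 21 or more UMIs 1.74% and 3.86%. At 6 to 10 UMIs the shares were 27.8% in 5xFAD and 29.0% in WT, and at 11 to 20 UMIs 8.86% (7.18 to 10.8) and 13.4% (11.6 to 15.3). When both libraries were weighted to the same distribution of UMIs, the difference was -1.78 points, with 20.8% in 5xFAD and 22.6% in WT. The IgD difference was thus smaller by more than 1.5 times once UMIs per cell were matched.

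A further difference was in cells with very high immunoglobulin mRNA. At least 100 heavy chain UMIs, a level used here as a stand-in for antibody-secreting cells since gene expression was not used, were found in 4 5xFAD cells (0.171%, 0.0465 to 0.437) and 23 WT cells (0.676%, 0.429 to 1.01), a difference of -0.505 points (-0.864 to -0.142). None of the 68 switched 5xFAD cells reached that level, against 15 of the 144 switched WT cells (10.4%, 5.95 to 16.6). A count of 0 of 68 allows a share of up to 4.41%, and the difference of -10.4 points had an interval of -16.6 to -3.50. In the deep cervical nodes 6.92% of 5xFAD switched cells (11 of 159) and 11% of WT switched cells (15 of 136) passed, a difference of -4.11 points (-11.5 to 2.86), and in the inguinal nodes 1 of 25 and 0 of 31 did. Whether the nodes differ in this was not tested. Unswitched cells above the level were 4 in 5xFAD and 8 in WT, 0.176% and 0.245% of unswitched cells, a difference of -0.0696 points (-0.339 to 0.238) that was within counting error.

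All 4 high-UMI cells of the 5xFAD library carried IgM, whereas the 23 WT cells were 8 IgM, 5 IgA, 5 IgG2c, 3 IgG2b and 2 IgG1 cells. The 5xFAD cells held 686, 216, 122 and 106 heavy chain UMIs. The 5 highest WT cells held 10152, 7768, 6170, 6083 and 5582. At least 1000 UMIs were found in none of the 2343 5xFAD cells and in 13 of the 3404 WT cells (0.382%, 0.203 to 0.652). The deep cervical nodes went the same way at this level, with 3 of 3866 5xFAD and 10 of 3314 WT cells. That difference was -0.224 points (-0.484 to -0.00773). In the inguinal nodes 0 of 2084 and 0 of 2167 cells reached it. In the superficial nodes the high-UMI cells together held 3.50% of the heavy chain UMIs in the 5xFAD library and 56.6% in the WT library. Without them the mean was 13.2 heavy chain UMIs per cell in 5xFAD and 12.2 in WT, so the mean of the remaining cells of all isotypes was not lower in 5xFAD. Switched cells went the other way. Their median, high-UMI cells included, was 9 heavy chain UMIs in 5xFAD and 13 in WT, against 13 and 12 for IgM cells.

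The level of 100 UMIs lay in a sparse range. The lowest cell above it had 106 UMIs in 5xFAD and 109 in WT, and the highest below it 77 and 96. Between 50 and 99 UMIs there were 15 5xFAD cells, 3 of them switched, and 22 WT cells, 9 of them switched. With the level set at 50 UMIs, 4.41% of 5xFAD switched cells (3 of 68) and 16.7% of WT switched cells (24 of 144) passed. Over all cells the difference at 50 UMIs was -0.511 points with an interval that includes 0 (-1.06 to 0.0648), and among unswitched cells it turned to 0.0591 points (-0.394 to 0.560), with 0.703% in 5xFAD and 0.644% in WT.

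Light chains, which are counted from separate contigs, gave the same order at the top of the range. The top light chain had at least 1000 UMIs in 1 5xFAD cell (0.0428%, 0.00108 to 0.238) and in 16 WT cells (0.468%, 0.268 to 0.759). At 100 light chain UMIs the gap was narrower, with 25 5xFAD cells (1.07%) and 60 WT cells (1.75%). Of the switched cells with a light chain, 14.1% in 5xFAD and 27.5% in WT reached 100 light chain UMIs.

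IgA cells showed the contrast cell by cell. The 4 IgA cells of the 5xFAD library had 31, 5, 4 and 1 heavy chain UMIs. The 9 IgA cells of the WT library had 10152, 6083, 5582, 2846, 2233, 22, 16, 14 and 4. Of the WT cells 5 lay above every 5xFAD cell, and the lower 4 lay within the range of the 5xFAD cells. IgA was thus present in both libraries, and IgA cells above 31 UMIs were seen in the WT library alone. Without IgA cells, 0 of the 5xFAD and 7.41% of the WT switched cells were above 100 UMIs, a difference of -7.41 points (-13.2 to -0.640).

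**Figure D2:**
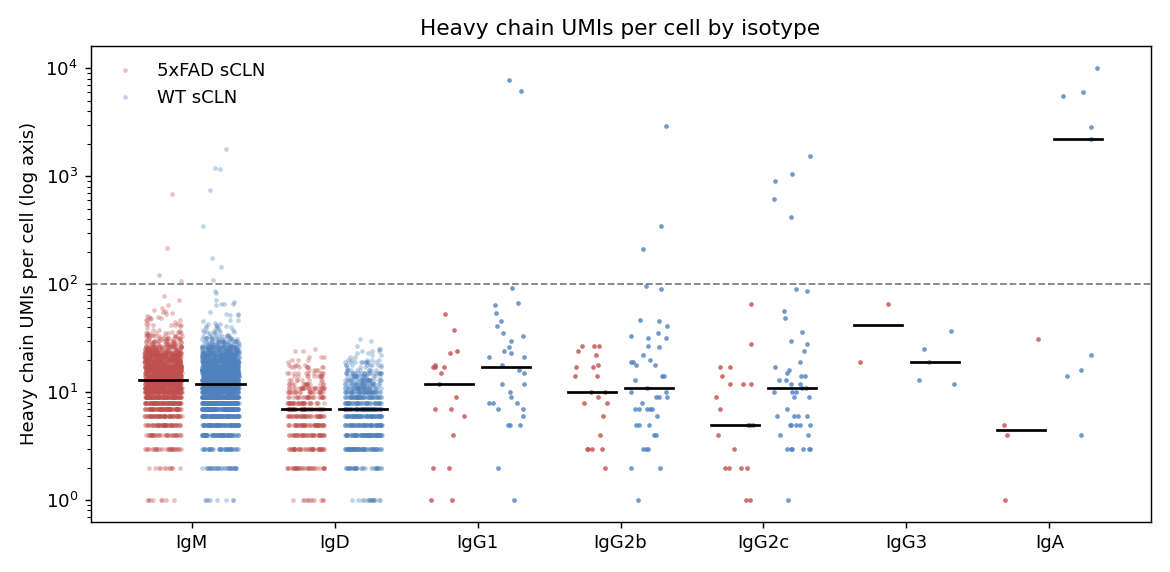
Heavy chain UMIs per cell on a log axis by isotype in the 5xFAD (red, left of each pair) and WT (blue) libraries; each point is a cell, black bars are medians and the dashed line is at 100 UMIs. Above the line lie 4 5xFAD cells, all IgM, and 23 WT cells, 15 of them switched, with 5 IgA cells between 2233 and 10152 UMIs.

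The receptors of these cells are shown by their heavy chain junctions, the stretch from the conserved cysteine codon near the end of V through CDR3 to the first codon after it, because they carry the recombination that made each cell. Sequences are the coding strand of the deposited contigs, 5′ to 3′, from the heavy chain locus on chromosome 12, and capitals mark N bases that match neither V, D nor J.
5xFAD IGHV6-3, IgM, 686 UMIs: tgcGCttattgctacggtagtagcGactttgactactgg
5xFAD IGHV1-74, IgM, 216 UMIs: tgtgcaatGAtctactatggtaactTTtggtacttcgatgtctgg
5xFAD IGHV1-69, IgM, 122 UMIs: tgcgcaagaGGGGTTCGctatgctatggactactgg
5xFAD IGHV1-66, IgM, 106 UMIs: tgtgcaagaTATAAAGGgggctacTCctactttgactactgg
WT IGHV1-75, IgA, 10152 UMIs: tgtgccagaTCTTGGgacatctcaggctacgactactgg
WT IGHV2-2, IgG1, 7768 UMIs: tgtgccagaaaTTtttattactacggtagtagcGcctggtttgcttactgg
WT IGHV1-9, IgG1, 6170 UMIs: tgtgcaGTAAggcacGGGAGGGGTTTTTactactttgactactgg
WT IGHV14-1, IgA, 6083 UMIs: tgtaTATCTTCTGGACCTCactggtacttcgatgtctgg
WT IGHV5-16, IgA, 5582 UMIs: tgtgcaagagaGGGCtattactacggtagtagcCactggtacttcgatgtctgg

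The junctions had 3 to 10 N bases in the 5xFAD cells and 3 to 17 in these WT cells, and no V gene was shared between the 4 and the 5. The IGHV1-69 and IGHV14-1 cells had no D call. Their 8 and 15 capital bases are thus all the bases between V and J, and D bases among them would not be marked. The IGHV6-3 cell was the highest of the 5xFAD library, used IGHD1-1 and IGHJ2, and paired with an IGLV1 lambda chain of 10709 UMIs, the only 5xFAD light chain above 1000. Its V segment differed from the germline at 5.44% of bases and its light chain V segment at 2.04%. The other 5xFAD cells had V mutation of 0.341% (IGHV1-74), 2.38% (IGHV1-69) and 1.02% (IGHV1-66). In the WT library 10 of the 23 high-UMI cells carried no V mismatch, including the IGHV1-9 IgG1 cell and the IGHV5-16 IgA cell.

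Mutation in the IGHV6-3 IgM cell is shown over the 105 bases from CDR1 through CDR2, where 6 bases differ. The upper sequence is the cell's, the lower the germline of the deposited alignment, and capitals mark the bases that differ.
5xFAD IGHV6-3 IgM cell: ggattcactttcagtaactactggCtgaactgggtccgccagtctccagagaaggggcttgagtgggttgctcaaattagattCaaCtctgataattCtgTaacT
IGHV6-3 germline: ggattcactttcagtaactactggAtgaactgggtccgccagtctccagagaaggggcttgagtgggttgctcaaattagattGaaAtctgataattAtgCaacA

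Some WT high-UMI barcodes repeated a receptor. An IGHV2-3 IgM receptor with an IGLV1 light chain was found in 2 barcodes with 1183 and 1171 heavy chain UMIs and 3219 and 3210 light chain UMIs. An IGHV4-1 IgG2c receptor with IGKV13-85 was found in 2 barcodes with 909 and 612 heavy chain UMIs. Whether such barcodes are sister cells or 1 cell under 2 barcodes was not tested. Counting identical receptors as 1 cell left the high-UMI difference at -0.472 points (-0.837 to -0.102).

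Switched cells were about equally mutated in both libraries. Activation-induced deaminase, the enzyme of both switching and mutation, prefers short motifs, and selection for antigen binding concentrates changes in the complementarity-determining regions (CDRs) rather than the framework. V mutation of switched cells averaged 2.70% in 5xFAD (SD 2.76 over 68 cells) and 2.87% in WT (SD 2.81 over 144 cells), with medians of 2.05% and 2.38%. At least 1% mutation was present in 73.5% of 5xFAD (61.4 to 83.5) and 69.4% of WT switched cells (61.2 to 76.8). Cells with no mismatch were 13.2% in 5xFAD and 16.7% in WT, and cells with 5% or more 14.7% and 20.8%. Each of these differences had an interval that included 0, the one for 5% or more reaching from -16.7 to 6.28 points.

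By mean mutation the 3 large IgG classes stood in the same order in both libraries, but not by median. IgG2c had the highest mean, of 3.82% in 5xFAD (SD 3.76, 21 cells) and 3.55% in WT (SD 3.04, 49 cells). IgG1 averaged 2.96% (SD 2.02, 19 cells) and 2.87% (SD 3.28, 34 cells). IgG2b had the lowest mean, 1.65% in 5xFAD (SD 2.08, 22 cells) and 2.21% in WT (SD 2.15, 47 cells). The medians in 5xFAD were 2.72% for IgG1, 2.38% for IgG2c and 1.02% for IgG2b, and in WT 1.87%, 2.72% and 1.71%. The 5xFAD IgG2c cells include a clone of 3 cells with 5.10% to 10.9%. None of the 19 IgG1 cells of the 5xFAD library lacked a mismatch, against 6 of 34 in WT, and the exact intervals (0 to 17.6% and 6.76 to 34.5%) overlapped. IgA cells averaged 1.45% (SD 1.02, 4 cells) in 5xFAD and 3.37% (SD 2.12, 9 cells) in WT. The highest value of either library, 13.4%, was in a 5xFAD IgG2c cell.

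**Figure D3:**
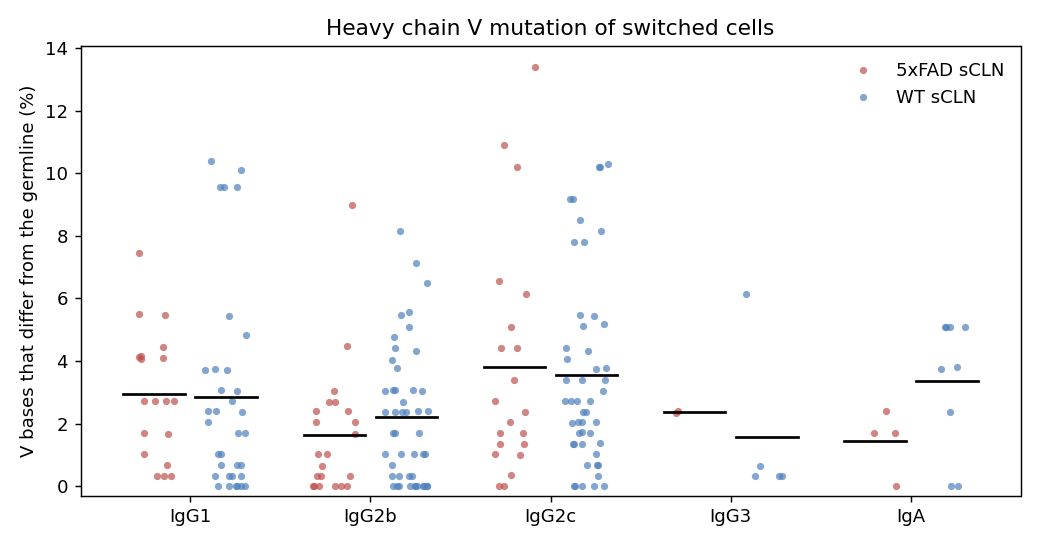
Percent of heavy chain V bases that differ from the germline in each switched cell by isotype, in the 5xFAD (red, left of each pair) and WT (blue) libraries; black bars are means over cells. The clouds overlap in every class, with IgG2c means of 3.82% in 5xFAD and 3.55% in WT.

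The pattern of the mismatches matched between libraries. In 5xFAD switched cells 4.35% of CDR bases and 2.31% of framework bases differed from the germline, and in WT 4.82% and 2.49%. Replacement changes per silent change were 3.24 in the CDRs and 1.54 in the framework of 5xFAD cells, and 3.38 and 1.73 in WT cells. Deaminase hotspots (A or T, then A or G, then the C, or its complement) held 40.4% of mismatches but 13.7% of bases in 5xFAD, and 38.2% of mismatches and 13.6% of bases in WT. Transitions made up 61.3% and 62.0% of mismatches in 5xFAD and WT. Light chains of switched cells with 1 light chain averaged 1.73% V mutation in 5xFAD (SD 1.88, 56 cells) and 2.14% in WT (SD 2.20, 137 cells). Heavy and light chain mutation went together across these cells, with Pearson's r of 0.825 and Spearman's rho of 0.679 in 5xFAD and 0.681 and 0.729 in WT, given as a description since cells of a library share its depth and animals.

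Unswitched cells were close to germline in both libraries, with a mean mutation of 0.0236% in 5xFAD and 0.0247% in WT. At least 1% mutation was found in 13 unswitched 5xFAD cells (0.572%, 0.305 to 0.976), all IgM, and in 21 WT cells (0.645%, 0.400 to 0.984), 19 of them IgM. Of these mutated unswitched cells, 3 in 5xFAD and 1 in WT were high-UMI cells. Of the 4 high-UMI 5xFAD cells, 3 thus came from the small group of mutated IgM cells. In IGHV1-69, 65.5% of unswitched 5xFAD cells (36 of 55) and 62.2% of WT cells (46 of 74) carried a mismatch, a share unlike that of unswitched cells in all (4.05% and 4.12%). Whether these cells share 1 mismatch, and whether the 122-UMI IGHV1-69 cell carries it, was not tested.

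Heavy and light chains were recovered together in nearly all cells. Exactly 1 light chain accompanied 91.6% of cells in each library, 2 light chains 7.60% of 5xFAD and 7.79% of WT cells, and none 0.849% and 0.610%. Among cells with 2 light chains, 94.4% in 5xFAD and 91.0% in WT carried a pair of kappa chains. Switched cells departed from this. Exactly 1 light chain was found in 82.4% of 5xFAD switched cells (71.2 to 90.5, 56 of 68) and in 95.1% of WT switched cells (90.2 to 98.0, 137 of 144), a difference of -12.8 points (-24.3 to -3.25). The remaining 5xFAD switched cells were 8 with 2 light chains and 4 with none, and the remaining WT cells 5 and 2. The deep cervical nodes went the other way, with exactly 1 light chain in 88.1% of 5xFAD and 83.1% of WT switched cells. In the inguinal nodes the shares were 92% and 96.8%.

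UMI depth of switched cells also differed between the superficial libraries. Switched cells with 1 or 2 heavy chain UMIs were 12 of 68 in 5xFAD (17.6%, 9.47 to 28.8) and 6 of 144 in WT (4.17%, 1.54 to 8.85), and the part of this in the light chain difference was not tested. The median heavy chain UMI count was 11.5 in 5xFAD switched cells with 2 light chains, 9.5 with 1 and 3 with none. In WT switched cells it was 16, 13 and 4. Low depth was thus seen in the cells without a light chain, not in those with 2. Among switched cells with at least 3 UMIs, 85.7% in 5xFAD and 94.9% in WT had exactly 1 light chain, with overlapping intervals. With that minimum for all cells the switched shares were 2.47% in 5xFAD and 4.17% in WT, a difference of -1.70 points (-2.65 to -0.724), and with exactly 1 light chain required they were 2.61% and 4.4% (difference -1.79 points, -2.79 to -0.753). The lower switched share in 5xFAD was thus seen with either limit. Each limit removed a larger part of the 5xFAD than of the WT switched cells. The part of coverage in the difference was not tested.

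Kappa and lambda use was alike. Lambda chains, which mice use in a small minority of B cells, were carried by 4.50% of 5xFAD cells with 1 light chain (3.66 to 5.46) and 5.11% of WT cells (4.37 to 5.94), a difference of -0.613 points (-1.79 to 0.603). IGLV1 made up 78.4% of lambda cells in 5xFAD and 77.6% in WT. The kappa J genes were used at 29.2% (IGKJ1), 30.8% (IGKJ2), 14.6% (IGKJ4) and 25.4% (IGKJ5) of kappa cells in 5xFAD, against 28.7%, 31.2%, 15.7% and 24.5% in WT. None of the 18 light chain differences of this kind had an interval clear of 0.

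Distinct combinations of heavy and light V genes numbered 1446 in 5xFAD and 1812 in WT, and 763 were found in both, 52.8% of the 5xFAD and 42.1% of the WT combinations. The most frequent 5xFAD combination, IGHV9-3 with IGKV1-135, was found in 9 cells (0.417%) against 3 in WT (0.0952%), where the shares of both genes alone would give 2.29 cells in 5xFAD. These 9 cells belonged to 7 clones, and none was switched. IGHV5-4 with IGKV6-23 was found in 7 cells of 7 clones in 5xFAD and 3 cells in WT. The most frequent WT combination, IGHV8-8 with IGLV1, was found in 6 5xFAD cells and 13 WT cells. IGHV1-26 with IGLV1 was found in 1 5xFAD cell (0.0464%, 0.00117 to 0.258) and 11 WT cells (0.349%, 0.174 to 0.624), and these WT cells fell into 11 clones. The other combinations frequent in 5xFAD were IGHV1-26 with IGKV17-127 (7 cells and 4 WT cells), IGHV9-3 with IGKV1-117 (7 and 10) and IGHV1-26 with IGKV1-135 (6 and 8), and those frequent in WT were IGHV2-2 with IGKV6-15 (5 and 11) and IGHV3-6 with IGKV10-96 (5 and 10). IGHV1-26 with IGKV2-137 was found in 3 5xFAD cells and 12 WT cells, 9 of which belonged to a single clone. These combinations were picked as the most frequent in a library, so their excess there is a description.

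Heavy chain V gene use was broadly shared. V families had close shares, with the large IGHV1 family at 59.1% of 5xFAD and 58.7% of WT cells, and the IGHV9 family was the only one whose difference cleared 0, at 6.03% and 4.45% (difference 1.58 points, 0.391 to 2.81). Of 42 IGHV genes used by at least 1% of cells in either library, 5 (11.9%) differed by more than 1.5-fold, 3 higher and 2 lower in 5xFAD. The same count was 7.89% of genes between genotypes in the deep cervical nodes and 10% in the inguinal nodes, so the superficial nodes lay near the other nodes.

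IGHV9-3, at chr12:114140692-114141122 on GRCm38, was used by 4.63% of 5xFAD cells (3.81 to 5.55, 109 cells) and 3.23% of WT cells (2.66 to 3.87, 111 cells). Its difference of 1.40 points (0.362 to 2.49) was the largest positive one. In the deep cervical nodes IGHV9-3 stood at 3.94% in 5xFAD and 4.74% in WT, and in the inguinal nodes at 3.75% and 4.18%, so it was lower in 5xFAD there. The 109 5xFAD cells fell into 103 clones. None of them was switched, against 7 of the 111 WT cells, a contrast singled out after its values were seen.

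IGHV1-76, at chr12:115847881-115848331, lay at the other end. It was used by 0.891% of 5xFAD cells (0.553 to 1.36, 21 cells) and 1.95% of WT cells (1.51 to 2.47, 67 cells), a ratio of 0.458 and a difference of -1.06 points (-1.68 to -0.417). The WT cells fell into 60 clones, the largest of 3 cells, and included 2 high-UMI cells, an IgA cell of 2846 and an IgG2b cell of 2892 UMIs. In the other nodes its shares were 1.33% in 5xFAD and 1.54% in WT (deep cervical), and 1.33% and 1.23% (inguinal). IGHV9-3 and IGHV1-76 were the 2 IGHV genes of 42 whose interval of the difference did not include 0.

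The other genes with the largest positive differences were IGHV14-2 (1.95% in 5xFAD, 1.28% in WT), IGHV14-3 (1.91% and 1.28%), IGHV1-18 (2.42% and 1.80%), IGHV1-39 (2.04% and 1.42%) and IGHV6-6 (1.27% and 0.785%). IGHV6-6 cells included 5 switched cells among 30 in 5xFAD, 2 of them in 1 clone, and none among 27 in WT. On the negative side stood IGHV2-2 (2.84% and 3.55%), IGHV8-8 (2.67% and 3.28%), IGHV1-80 (2.42% and 2.97%), IGHV1-26 (5.86% and 6.37%) and IGHV6-3 (1.10% and 1.60%). IGHV1-26 was the most used gene in both libraries, and IGHV1-64 (3.18% and 3.52%) and IGHV3-6 (3.18% and 3.31%) were also widely used. The remaining genes past 1.5-fold were IGHV1-78 (1.15% and 0.698%) and IGHV4-1 (0.637% and 1.05%). IGHV2-2 held 3 of the 23 WT high-UMI cells and none of the 5xFAD ones. Switched IGHV2-2 cells were 10 of 122 in WT, from 8 clones, and 1 of 67 in 5xFAD. Over all cells with an isotype, 2.90% in 5xFAD and 4.23% in WT were switched. The switched counts of IGHV6-6 and IGHV2-2 were singled out after their values were seen.

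V genes of B-1 cells, an innate-like lineage with germline receptors to lipids of cell membranes, were rare. IGHV11 was found in 2 5xFAD cells (0.0849%) and 4 WT cells (0.116%), and IGHV12 in 1 and 2 cells. Among the IGHJ genes, IGHJ2 was the most used at 33.4% of 5xFAD and 34.0% of WT cells. IGHJ4 followed at 25.4% and 24.2%, IGHJ3 at 23.1% and 22.9%, and IGHJ1 at 18.1% and 18.9%.

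Of 44 light chain V genes at 1% or more in either library, 5 (11.4%) differed by more than 1.5-fold, against 13.6% in the deep cervical and 25.5% in the inguinal nodes. IGKV3-10 and IGKV4-55 entered this count only through the library where they were higher. With a mean share of at least 1% required, 5 of 43 genes were past 1.5-fold in the superficial nodes. IGKV12-41 was used by 2.18% of 5xFAD cells with 1 light chain (1.61 to 2.89) and 1.27% of WT cells (0.908 to 1.72), a difference of 0.910 points (0.177 to 1.70). IGKV5-48 was used by 1.90% and 1.08% (difference 0.822, 0.139 to 1.57). IGKV9-120 was lower, at 1.02% in 5xFAD (0.640 to 1.54) and 1.87% in WT (1.43 to 2.41), a difference of -0.852 points (-1.51 to -0.169). In the other nodes IGKV9-120 stood at 1.41% in 5xFAD and 2.07% in WT (deep cervical) and 1.35% and 2.06% (inguinal), and IGKV12-41 at 2.12% and 1.54%, and 1.61% and 1.31%, in the same direction as here. IGKV5-48 went the other way in the deep cervical nodes (1.47% in 5xFAD and 1.57% in WT) but not in the inguinal ones (1.66% and 1.41%). IGKV3-10 was used by 0.695% of 5xFAD and 1.36% of WT cells (difference -0.669, -1.23 to -0.0840), with 0.988% and 1.17% in the deep cervical nodes and, in the other direction, 1.19% and 1.06% in the inguinal nodes. IGKV6-15 was used by 4.50% and 3.40% (difference 1.10, 0.0158 to 2.24), but was lower in 5xFAD in the deep cervical (3.08% and 3.40%) and inguinal nodes (2.64% and 3.77%). IGKV12-46 was used by 3.15% and 2.41%. IGKV14-111 (1.90% in 5xFAD and 2.51% in WT) and IGKV17-121 (1.44% and 2.00%) were lower with intervals that included 0. The most used light chain gene, IGKV10-96, had 5.29% of 5xFAD and 5.27% of WT cells. IGLV1 (3.52% and 3.97%), IGKV1-117 (3.48% and 3.94%) and IGKV6-17 (3.01% and 3.27%) were the other widely used genes, and IGKV4-55 (1.48% and 0.889%) was the remaining gene past 1.5-fold.

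**Figure D4:**
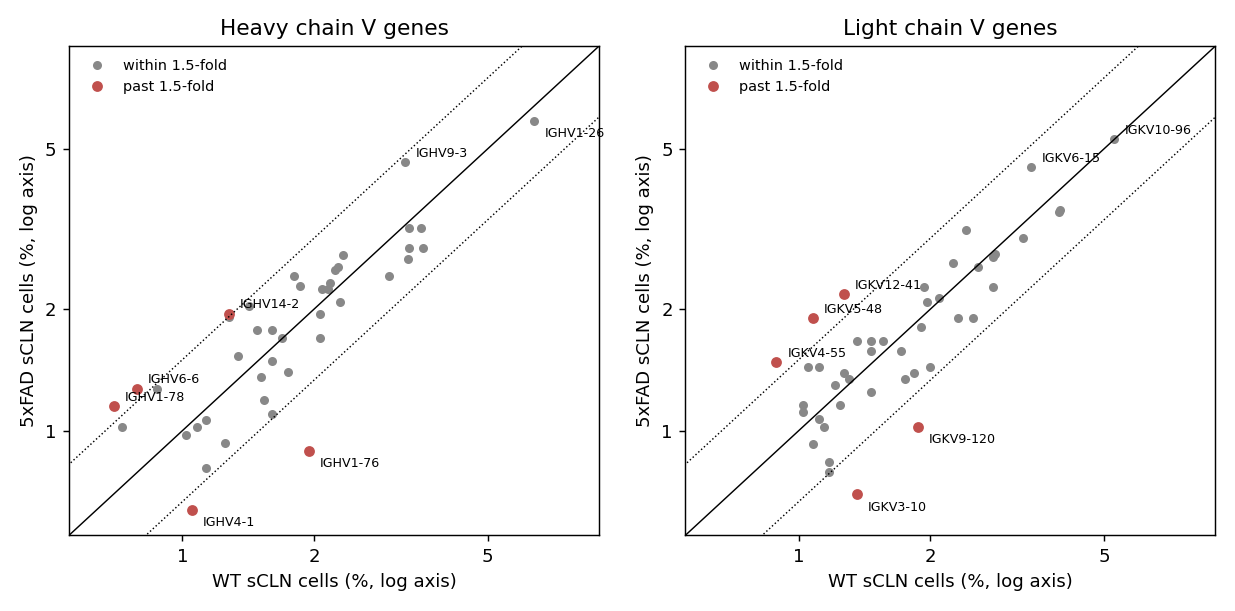
Share of 5xFAD cells (vertical, log axis) against share of WT cells (horizontal, log axis) using each V gene at 1% or more in either library; the solid line marks equal use and the dotted lines 1.5-fold. Of 42 heavy chain and 44 light chain V genes, 5 each lay outside the dotted lines (red).

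D gene use was led by IGHD1-1, the longest of the common mouse D segments. The germline segment is shown because its reading frame sets much of the CDR3. It lies at chr12:113482170-113482192 on the minus strand of GRCm38 (GENCODE M21), and capitals mark the codons that start at base 3.
IGHD1-1 germline: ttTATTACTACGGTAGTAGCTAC
Read from base 3 the segment holds 4 tyrosine codons among 7 and no stop codon, while the frame from base 2 holds 2 stop codons.

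IGHD1-1 was called in 35.9% of 5xFAD cells with a D call (33.9 to 38.0) and 37.3% of WT cells (35.6 to 39.0), a difference of -1.36 points (-4.03 to 1.33). Its frame from base 3 was used by 75.8% of unswitched IGHD1-1 cells in 5xFAD (561 of 740) and 75.2% in WT (829 of 1103), the frame from base 1 by 20.0% and 20.7%, and the frame with stop codons by 4.19% and 4.17%. In IGHD2-3 cells the frame from base 3 was used by 83% of unswitched cells in 5xFAD and 83.9% in WT, whereas in IGHD4-1 cells the 3 frames were more even, at 34.1%, 22.4% and 43.5% from bases 1, 2 and 3 in 5xFAD and 30%, 28.3% and 41.7% in WT. The IGHD2 family had 38.0% of 5xFAD and 35.9% of WT cells (difference 2.13 points, -0.559 to 4.82), and the IGHD1 family 38.9% and 41.3% (difference -2.34, -5.06 to 0.391). IGHD4-1, the shortest common segment, had 10.8% and 10.4%, and the IGHD3 family 6.24% and 5.18%. No D segment could be called in 9.59% of 5xFAD and 9.68% of WT cells.

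Of the 49 D differences, 2 had an interval clear of 0, and both concerned ambiguous calls. Calls naming IGHD1-1 and IGHD1-2 jointly were 1.36% in 5xFAD and 2.25% in WT (difference -0.891, -1.63 to -0.124), and calls spanning several families 4.37% and 5.73% (difference -1.36, -2.57 to -0.122). The larger calls within IGHD2 each had a difference whose interval included 0. IGHD2-4 or IGHD2-9 was at 11.3% in 5xFAD and 9.72% in WT, IGHD2-3 at 7.32% and 7.85%, and IGHD2-5 or IGHD2-6 at 5.68% and 5.31%. The smaller calls were IGHD2-2, IGHD2-7 or IGHD2-9 (3.05% and 2.22%), IGHD2-1 or IGHD2-10 (2.16% and 2.74%), IGHD2-1, IGHD2-10 or IGHD2-11 (1.55% and 2.03%), IGHD3-2 (3.71% and 2.99%), IGHD3-3 or IGHD4-1 (1.17% and 1.67%) and IGHD3-1 or IGHD3-2 (0.939% and 1.06%).

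The CDR3 of unswitched cells was alike in length and make-up. Its mean length was 12.1 amino acids in 5xFAD (SD 2.66, 2275 cells) and 12 in WT (SD 2.61, 3260 cells), with a median of 12 in both. N additions averaged 4.22 bases between V and D and 3.02 between D and J in 5xFAD, and 4.08 and 2.88 in WT. Junctions with no N base were 1.36% of unswitched 5xFAD cells with a D call (0.906 to 1.96) and 1.59% of WT cells (1.17 to 2.12). CDR3s with IGHJ1 averaged 13.2 amino acids in both libraries and those with IGHJ2 11.2 in both. Tyrosine made up 20.5% of CDR3 residues in 5xFAD and 20.4% in WT, and the mean net charge was -0.305 and -0.299.

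CDR3 lengths of switched cells ran between 6 and 18 amino acids in 5xFAD and between 5 and 17 in WT. Lengths of 8 amino acids or fewer were found in 11 of 68 5xFAD switched cells (16.2%, 8.36 to 27.1) and 12 of 144 WT cells (8.33%, 4.38 to 14.1). At 18 amino acids stood 3 5xFAD cells (4.41%, 0.919 to 12.4) and no WT cell (0 to 2.53%), and this difference of 4.41 points had an interval of 0.0996 to 12.4. The inguinal nodes went the other way, with 18 amino acids or more in 0 of 25 5xFAD and 3 of 31 WT switched cells. The deep cervical nodes had 2 of 159 and 2 of 136. At 16 amino acids or more the superficial difference was 4.21 points, with an interval that includes 0 (-4.96 to 15.4). The SD of the length was 3.17 in 5xFAD and 2.50 in WT, around means of 12.1 and 12.2. Mean net charge was -0.529 in 5xFAD (SD 1.15) and -0.0625 in WT (SD 1.07) switched cells, and N additions of those with a D call averaged 8 bases in 5xFAD and 9 in WT.

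**Figure D5:**
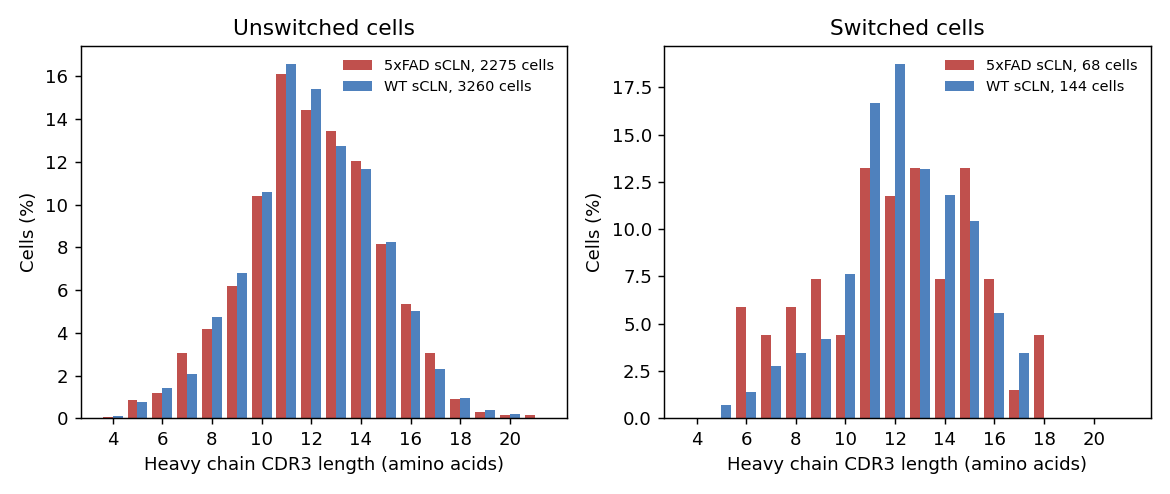
Heavy chain CDR3 length in amino acids (horizontal) against percent of cells (vertical) for unswitched and switched cells of the 5xFAD (red, left bar of each pair) and WT (blue) libraries. The unswitched distributions nearly coincide around a median of 12, and the 68 switched 5xFAD cells include 3 cells of 18 amino acids, a length with no WT switched cell.

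Clones were small in both libraries. Cells were joined where V gene, J gene and the length of the junction were equal and the junctions differed at no more than 0.15 of bases. At an equal number of 2356 cells, 11.9% of 5xFAD and 10.7% of WT cells were in clones of 2 or more. The largest 5xFAD clone had 4 IgM cells, with IGHV3-6, 4 different heavy junctions and 4 different light chain junctions, all without a V mismatch. The next held 3 cells each, an IGHV1-18 clone with a single IGKV10-96 light chain and an IGHV1-26 clone with 3 different light junctions. The largest WT clone had 9 IgM cells with 1 heavy and 1 light junction, IGHV1-26 with IGKV2-137, and no V mismatch. Its junction is shown since it gave the WT library its largest clone, with N bases in capitals.
WT IGHV1-26 clone of 9 cells: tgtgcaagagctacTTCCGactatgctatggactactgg
An IGHV1-22 clone of 5 cells with 4 light junctions and an IGHV1-52 clone of 4 cells with 3 light junctions followed in WT.

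Of cells with 1 light chain, 7.42% in 5xFAD (6.35 to 8.61) and 10.1% in WT (9.09 to 11.2) repeated the full heavy and light junctions of another barcode of their library. When these were counted as 1 cell, clones at an equal number of cells held 4.94% of 5xFAD and 4.22% of WT cells. Of switched cells, 12 of 68 in 5xFAD (17.6%, 9.47 to 28.8) and 32 of 144 in WT (22.2%, 15.7 to 29.9) were in a clone, from 6 and 17 clones. The 5xFAD clones included an IGHV1-42 IgG2c clone of 3 cells with mutation of 5.10% to 10.9%, an IGHV6-6 IgG1 clone of 2 cells with 2.71% and 4.08%, and an IGHV6-3 clone of an IgG3 and an IgM cell. In WT they included an IGHV5-2 IgG1 clone of 3 cells with 2.39% to 3.72% and an IGHV1-19 IgG1 clone of 2 cells with 10.1% and 10.4%.

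The libraries shared few receptors. Of 2261 distinct heavy junctions in 5xFAD and 3259 in WT, 5 were identical (0.221% and 0.153%), none with the same V and J gene and none with the same light junction. The 5xFAD library shared 2 full heavy and light receptors with the 5xFAD deep cervical library and 1 with the WT deep cervical library, and the WT library shared 4 with the WT deep cervical and 1 with the WT inguinal library. By heavy V, J and junction alone, the 5xFAD library shared 2 with the 5xFAD and 3 with the WT deep cervical library. The WT library shared 5 with the WT deep cervical, 1 with the 5xFAD deep cervical and 1 with the WT inguinal library by this measure. The 5 heavy junctions shared between the superficial libraries held 0, 1, 5, 5 and 6 N bases, and 2 of them had no D call. The 2 with the fewest N bases are shown, with N bases in capitals.
In 5xFAD with IGHV5-4, in WT with IGHV1-75: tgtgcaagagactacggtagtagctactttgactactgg
In 5xFAD with IGHV1-26, in WT with IGHV1-78: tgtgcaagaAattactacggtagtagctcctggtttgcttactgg
Both were called IGHD1-1, the segment printed above, and the capitals follow the alignment of the 5xFAD cell.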

How the data were processed

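B cell receptor libraries of single hashtagged cells were prepared on the 10x Genomics platform, per the labels. The submitters' processing notes list Cell Ranger 6.0.1, Seurat 4.1.0 and mm10 but give none of them a step. The germline set is not given in the sources used here. The authors deposited 1 line per assembled contig, all productive, with V, D, J and constant region calls. UMI and read counts per contig were deposited raw. V identity is a fraction per the file headers, where lengths of junctions, N and D stretches are numbers of bases.

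Cells had exactly 1 productive heavy chain. V mutation is the percent of aligned V bases unlike the germline, over positions with a called base in both. Joint V calls kept their joint names for gene use, and clones, built by single linkage, took the first. Clone shares at equal cell numbers are means over 1000 draws. Doublets were handled only by leaving out barcodes with several heavy chains. With 1 library per group there is no test, and differences carry square-and-add intervals. Cells of a clone are not independent, so intervals are too narrow where clones are large.

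The members and gene lists were chosen with earlier results of these data known. Named genes were the 6 largest positive and 6 largest negative IGHV differences and the 5 most used, with 4, 4 and 5 for light chain V genes, the 5 most frequent gene combinations and the 3 largest clones per library, all 5xFAD high-UMI cells and the 5 highest in WT, and all isotypes, J genes and common D genes. GENCODE M21 (GRCm38) gave coordinates for 46 of 47 gene names, with IGHG2A unmatched. Printed junctions and V stretches are from the deposited contigs and D letters from GENCODE transcripts. Tested on simulated data, mismatch counting erred in 0 of 500 sequences, and intervals of the simulated switched share held the true value in at least 94.3% of 2000 draws. Python 3.11.15, pandas 2.3.3, numpy 2.4.6 and scipy 1.17.1 were used.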

Additional observations from a re-analysis of the deposited data

Results flagged for a closer look

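The share of cells whose top light chain had at least 50 UMIs differed in direction between the superficial and the deep cervical nodes. It was 16.5% in 5xFAD and 18.8% in WT superficial nodes, a difference of -2.31 points (-4.32 to -0.275), and 6.67 points higher in 5xFAD than in WT deep cervical nodes (4.93 to 8.39). In the inguinal nodes it was 9.29% in 5xFAD and 14.6% in WT, a difference of -5.26 points (-7.23 to -3.29), in the direction of the superficial nodes. The intervals cover counting error only, and the difference between nodes was not tested.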

How the results depend on the processing

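Of 52 alternatives to 15 results, 44 stayed within the counting interval of the reported difference or within 1.5 times of the reported count or mean difference, and 8 moved. Of 45 differences, 42 kept their sign; the others were the median CDR3 length, clones over all cells, and switched cells with at least 2% V mutation, at -2.61 points against 4.08 for at least 1%, both with intervals that include 0. Differences are 5xFAD minus WT. The IgD difference moved to -1.78 points with UMIs matched. The difference in mean V mutation of switched cells, -0.176 points, was -0.0662 with at least 3 UMIs and -0.280 with each clone counted once. The difference in median CDR3 length was 0, against 0.0756 amino acids for the means. Past 2-fold instead of 1.5-fold stood 1 IGHV gene and 0 light chain V genes. With a mean share of 1% required, 3 of 37 IGHV genes were past 1.5-fold in place of 5 of 42. The difference in cells in clones was 1.22 points at equal cell numbers but -3.04 points over all cells. High-UMI differences over all cells and over switched cells kept their sign at 50 and 200 UMIs, but at 50 the interval for all cells (-1.06 to 0.0648) included 0 and the difference among unswitched cells turned to 0.0591. The added alternatives (light chain UMIs, IgA left out, fixed mismatches, mean share) were chosen after seeing the data. No paired analysis was possible because each group is 1 library. Rare classes are limited by 68 and 144 switched cells, and no value separates genotype from library.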
